A study of Rattus norvegicus with 6 samples.

Results

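Of the 32623 genes in the deposited table, 53 made up the set described here: the matrix metalloproteinases (Mmp), the ADAM and ADAMTS proteases, their tissue inhibitors (Timp) and the lysyl oxidases. They were chosen by gene symbol, from 69 symbols of these families, as those with at least 10 counts summed over the 6 libraries. The 16 symbols left out held between 0 and 9 counts and include Timp4 (8 counts), Adamts20 (9) and Adam22 (9). The members nearest above the minimum were Adamts17 and Mmp20, with 14 counts each. Of the 53 members, 49 passed the low-count filter of the test. Adam33, Adamts17, Adamts19 and Mmp20 did not and were not tested. RNA was sequenced from 6 samples labelled rat liver. The 3 control samples (GM) followed embolization, the blocking of feeding vessels, with blank microspheres, and the other 3 (GZM) followed embolization with ZnS (zinc sulfide) microspheres. The series title names hepatocellular carcinoma, but the labels do not say whether a sample held tumour, liver or both, and nothing in the sources used here gives strain, age, sex or time after embolization. Nothing in the labels says that the replicates of a group are separate animals, so the p-values measure only the spread between these samples, which may be technical.

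Matrix metalloproteinases, ADAMs and ADAMTS proteases carry a zinc ion in the active site. Most matrix metalloproteinases are made as inactive precursors and cut collagen, gelatin and other matrix proteins once activated, while ADAMs mainly release membrane-bound cytokines, growth factors and receptors, and ADAMTS proteases trim proteoglycans and procollagens. TIMPs plug the active site, and TIMP2 has a further role in bringing the gelatinase precursor proMMP2 to MMP14 at the cell surface. Lysyl oxidases are copper enzymes that cross-link collagen and elastin. In injured liver, stellate cells, macrophages and endothelial cells are known sources of many of these transcripts.

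Library totals ran from 13443115 to 16604067 counts. The fixed hepatocyte markers took 2.12% to 6.10% of counts in GM and 9.42% to 10.4% in GZM, with GM 3 the GM library nearest to GZM. Each level below is in counts per 1000000 after TMM scaling (CPM), unless it is called FPKM, which divides by exon length, so that genes can be compared, and by the plain library total. On the TMM scale the median log2 fold change over all 14298 tested genes was -0.09. With plain library totals it was -0.92, a shift of the whole scale, and directions that turn there are named. In the text each fold change is GZM against GM from edgeR's quasi-likelihood test, with its standard error, and a gene is said to have risen or fallen at an adjusted p under 0.05.

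Of the 49 tested members 16 changed, 4 higher and 12 lower in GZM. Over all tested genes 44.0% changed, 22.2% higher and 21.7% lower, against 32.7%, 8.16% and 24.5% of the tested members. The members' share lower was thus near the background and their share higher was below it. The 3 GZM libraries lay wholly above the GM libraries for 4 tested members and wholly below them for 15, where 58.1% of all tested genes had no overlap in either direction (28.4% higher, 29.7% lower). The median log2 fold change of the tested members was -0.39. The 12 that fell were Timp2, the stromelysins Mmp3 and Mmp10, 5 catalytic ADAMs, the non-catalytic Adam32, Adamts3, Adamts14 and Adamts5. Mmp15 and Adam11 rose on each scale run, while Mmp24 and Loxl4 rose on the TMM scale and had fold changes of -0.12 and -0.027 with library totals.

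**Figure D1:**
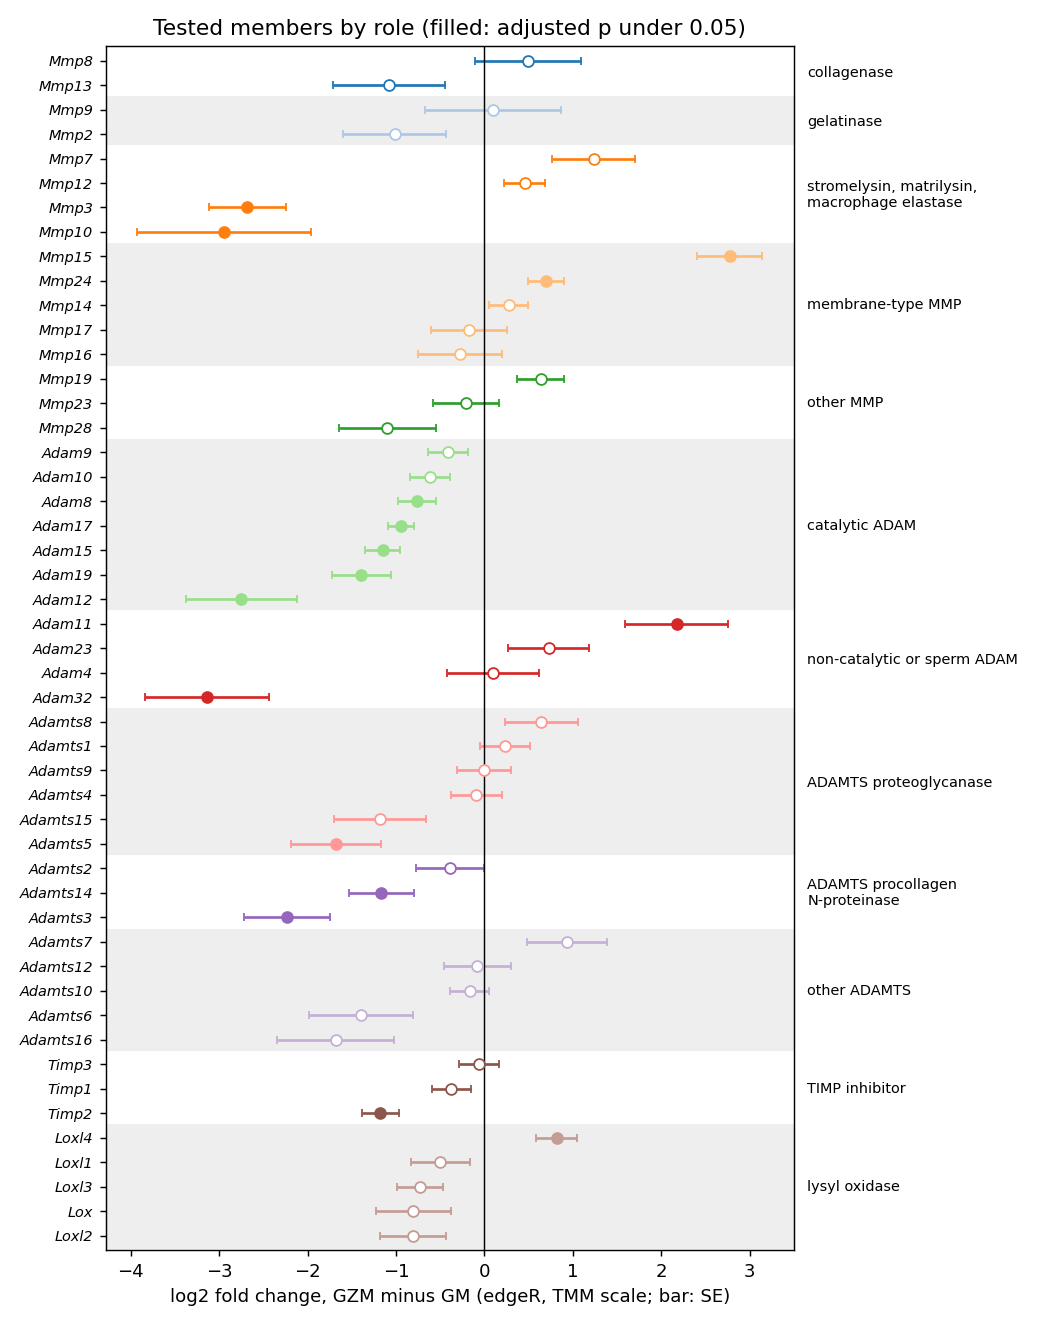
Log2 fold change (GZM minus GM, TMM scale) with its standard error for the 49 tested members, grouped by role; filled points passed an adjusted p under 0.05. The catalytic ADAMs all lie left of 0 and run from -0.41 (Adam9) to -2.75 (Adam12), while Mmp15 at 2.78 lies farthest to the right.

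**Figure D2:**
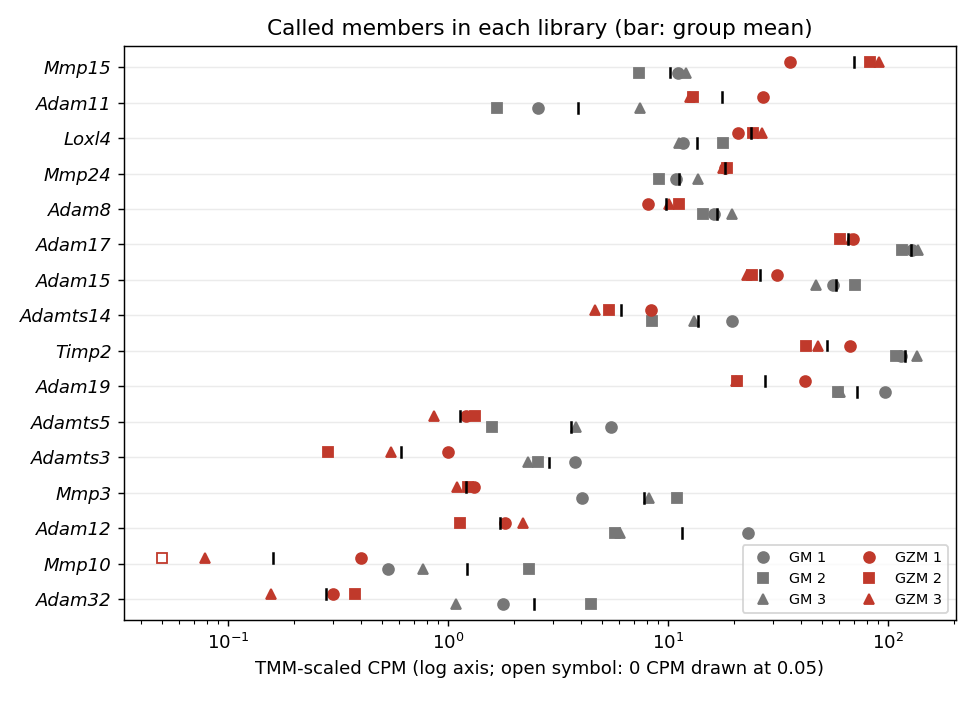
TMM-scaled CPM (log axis) of the 16 members that passed, in each of the 6 libraries; short bars are group means and the open symbol is a 0. The 3 GZM symbols of Mmp15 (35.9 to 90.7 CPM) lie to the right of the 3 GM symbols (7.41 to 12.1 CPM), and those of Timp2 to the left.

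Among the inhibitors, Timp2 fell and Timp1 and Timp3 did not pass. Timp2 (ENSRNOG00000003148), the partner of MMP14 in activating proMMP2, stood at 114.4, 108.2 and 135.6 CPM in GM 1 to 3 and at 67.4, 42.5 and 48.1 CPM in GZM 1 to 3. The groups did not overlap, and the means of 119.4 ± 14.4 and 52.7 ± 13.1 CPM (SD, n = 3 each) differed 2.27-fold (log2 fold change -1.18 ± 0.21 SE, edgeR adjusted p = 0.00453). Timp1, an inhibitor induced in wounded tissue, had 107.1, 89.6 and 75.4 CPM in GM and 89.8, 62.1 and 58.0 CPM in GZM. Its groups overlapped through GZM 1 (-0.37 ± 0.22, adjusted p = 0.197). It passed as lower with library totals (-1.23) and without GM 3 and GZM 1 together (-0.63, adjusted p = 0.0172; 0.00373 to 0.482 over the alternatives). Timp3, which binds to the matrix, ranged from 11.6 to 18.1 CPM in GM and from 13.7 to 16.6 CPM in GZM (-0.06 ± 0.22, adjusted p = 0.841), and was also lower with library totals (-0.88, adjusted p = 0.0104; 0.00848 to 0.991 over the alternatives). Per length, Timp1 was the most abundant member in both groups, at a mean of 165.7 FPKM in GM and 70.7 FPKM in GZM. Timp1 made up 52.5% to 64.9% of the summed TIMP FPKM in GM libraries and 67.1% to 71.5% in GZM libraries, and Timp2 30.9% to 42.1% and 21.8% to 24.8%.

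The ratio of proteases to inhibitors within a library does not depend on the scaling between libraries. It was not tested, since the members were chosen with results known. Summed FPKM of the 17 Mmp members divided by that of Timp1 to Timp4 was 0.858, 0.583 and 1.10 in GM 1 to 3, against 1.16, 1.46 and 1.61 in GZM 1 to 3. All 3 GZM values lay above the GM values, GM 3 and GZM 1 being close. The sums behind the ratio do depend on the scaling. For the Mmp members the deposited FPKM summed to 227.3 ± 59.9 in GM and 139.3 ± 14.7 in GZM (SD, n = 3 each), but after division by the TMM factors the sums were 172.1 ± 52.9 and 185.4 ± 12.8, so that the direction turned and the groups overlapped. For the TIMPs the sums were lower in all 3 GZM libraries on both scales, at 272.8 ± 45.3 against 100.9 ± 22.1 FPKM as deposited and 203.0 ± 17.01 against 134.7 ± 30.3 after that division. For the 16 ADAMTS members the ratio was 0.282, 0.166 and 0.234 in GM, against 0.293, 0.310 and 0.312 in GZM, again without overlap. The 12 ADAM members include 4 that are described below as without a working catalytic site, so their sum is not one of proteases alone. For these 12 the ratio was 0.569, 0.524 and 0.531 in GM, against 0.391, 0.512 and 0.587 in GZM, and the groups overlapped. The ADAM sums were 148.3 ± 30.4 FPKM in GM and 48.9 ± 5.70 FPKM in GZM as deposited, and 110.2 ± 14.3 and 65.0 ± 4.38 after division by the TMM factors (SD, n = 3 each). Mmp14 over Timp2, the pair that meets at the cell surface, was 1.00, 0.620 and 0.638 in GM, against 1.46, 2.56 and 2.43 in GZM, a 2.85-fold difference between the means. Mmp2 over Timp2 overlapped, at 0.767, 0.412 and 1.09 in GM, against 1.30, 0.580 and 0.546 in GZM.

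**Figure D3:**
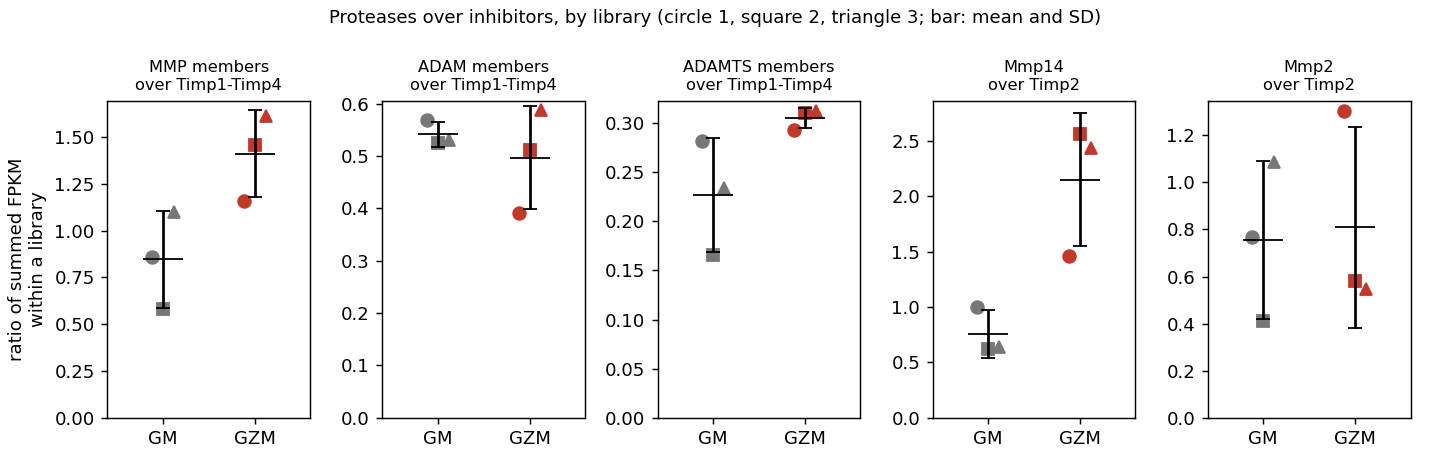
Summed FPKM of protease family members divided by that of inhibitors in each library, with the group mean and SD (n = 3). The ADAM sum includes members without a working catalytic site. Each panel has its own vertical axis from 0. The 3 GZM points lie above the 3 GM points for the Mmp members, the ADAMTS members and Mmp14 over Timp2, and the groups overlap for the ADAM members and Mmp2 over Timp2.

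Membrane-type metalloproteinases, which are anchored at the cell surface, held 2 of the 4 members that rose. These were 2 of 5 tested, or 40%, beside 22.2% higher of all tested genes. Of the 2 only Mmp15 was also higher with library totals. Mmp15 (ENSRNOG00000012622), also called MT2-MMP, had 11.1, 7.41 and 12.1 CPM in GM and 35.9, 82.5 and 90.7 CPM in GZM. All GZM libraries were higher, GZM 1 least so, and the fold change was 6.85 (log2 2.78 ± 0.37 SE, adjusted p = 0.0024). It passed under all 14 alternatives, between 1.60 and 3.30 on the log2 scale. Mmp24, or MT5-MMP, had 10.9, 9.11 and 13.6 CPM in GM and 18.1, 18.6 and 17.8 CPM in GZM. The groups did not overlap on the TMM scale (0.70 ± 0.21, adjusted p = 0.0277), and with library totals its sign turned (-0.12, adjusted p = 0.607). The call also ended on leaving out GM 1, GM 2, GZM 1, GZM 2 or GZM 3 (adjusted p of 0.0539 without GM 2 to 0.0946 without GZM 2) and with the replicate block (0.0576), with 0.00808 to 0.607 over the alternatives. Mmp14, or MT1-MMP, the surface activator of proMMP2, had 168.1, 98.4 and 127.0 CPM in GM and 144.0, 159.6 and 171.7 CPM in GZM. It overlapped (0.27 ± 0.22, adjusted p = 0.343), and with library totals the fold change was -0.56. Per length it stood second in GZM, at 48.8 FPKM. The other membrane-type members, Mmp16 and Mmp17, were at 4.51 CPM or less in each library and did not pass. Hepatocyte markers were also higher in GZM: of 10 fixed markers 9 were in the table, 8 rose and none was at 0. Their summed level was 14921 to 52041 CPM in GM and 118837 to 139579 CPM in GZM. Within GM the sum and Mmp15 had the same order. The sum was 14921, 19590 and 52041 CPM in GM 2, GM 1 and GM 3, where Mmp15 was at 7.41, 11.1 and 12.1 CPM. Within GZM the order differed. The sum was 139579, 139200 and 118837 CPM in GZM 1 to 3, where Mmp15 was at 35.9, 82.5 and 90.7 CPM. The part of these markers in the result was not tested. In tissue samples such as these, fewer cells of a type and less RNA per cell cannot be told apart.

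The stromelysins Mmp3 and Mmp10, which cut many matrix proteins and activate other proMMPs, both fell. They lie with 7 other Mmp genes within 378.3 kb of chromosome 8 in the table's coordinates (5522739 to 5901049, with the genome build not settled, as described under the processing). The sequence upstream of the gene start is shown for 4 genes of this cluster because they share an element at a similar place, and the values of all 4 follow. Each holds the AP-1 element TGANTCA, in capitals, the classical inducible site of Mmp promoters. Each sequence is the 250 bases before the start in RefSeq on GRCr8, 5′ to 3′ on the gene's strand.
Mmp3 promoter (chr8:12925031-12925280, plus strand): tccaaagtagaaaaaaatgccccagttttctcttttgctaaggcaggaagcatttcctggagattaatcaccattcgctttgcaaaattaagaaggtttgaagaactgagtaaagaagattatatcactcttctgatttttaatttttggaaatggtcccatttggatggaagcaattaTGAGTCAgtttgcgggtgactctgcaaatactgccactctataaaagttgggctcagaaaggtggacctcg
Mmp10 promoter (chr8:12974457-12974706, plus strand): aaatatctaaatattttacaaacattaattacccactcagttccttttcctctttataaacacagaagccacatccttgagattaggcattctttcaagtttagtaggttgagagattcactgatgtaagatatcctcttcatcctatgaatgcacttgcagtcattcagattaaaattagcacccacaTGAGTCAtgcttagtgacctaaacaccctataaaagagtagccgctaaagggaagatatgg
Mmp12 promoter (chr8:12866402-12866651, plus strand): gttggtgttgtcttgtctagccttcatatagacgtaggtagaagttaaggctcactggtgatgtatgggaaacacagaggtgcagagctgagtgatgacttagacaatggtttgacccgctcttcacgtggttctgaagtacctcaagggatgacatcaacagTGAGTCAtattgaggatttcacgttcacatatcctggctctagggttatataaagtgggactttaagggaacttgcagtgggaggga
Mmp7 promoter (chr8:13132793-13133042, plus strand): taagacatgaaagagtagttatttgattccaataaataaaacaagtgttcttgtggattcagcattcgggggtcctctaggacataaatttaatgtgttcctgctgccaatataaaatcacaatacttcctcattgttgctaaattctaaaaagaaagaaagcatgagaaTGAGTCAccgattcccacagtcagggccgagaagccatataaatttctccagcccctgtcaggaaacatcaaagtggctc

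Mmp3 (ENSRNOG00000032626) had 4.05, 11.02 and 8.22 CPM in GM and 1.30, 1.23 and 1.10 CPM in GZM. Its highest GZM library was well under its lowest GM library (-2.68 ± 0.43 SE, adjusted p = 0.00344), and it passed under all 14 alternatives. Mmp10 was near the detection limit, with 11, 55 and 15 counts in GM 1 to 3 and 4, 0 and 1 counts in GZM 1 to 3. Most of its counts came from GM 2. It passed with all 6 libraries (-2.95 ± 0.98, adjusted p = 0.0418) and not without GM 2 (0.123), GZM 2 (0.124) or GZM 3 (0.135), nor with the replicate block (0.079), with 0.00762 to 0.135 over the alternatives. Mmp12, the macrophage elastase, had 23.2, 18.6 and 30.6 CPM in GM and 33.0, 26.7 and 39.6 CPM in GZM. It did not pass (0.46 ± 0.23, adjusted p = 0.145) and its sign was negative with library totals (-0.35), while without GM 3 it passed as higher (0.70, adjusted p = 0.0308; 0.0308 to 0.388 over the alternatives). Mmp7, or matrilysin, had 4.24, 1.45 and 2.11 CPM in GM and 4.21, 5.28 and 8.79 CPM in GZM (1.24 ± 0.47, adjusted p = 0.065). GM 1 overlapped with GZM, and without it Mmp7 passed as higher (1.78, adjusted p = 0.0307). It also passed in DESeq2 (adjusted p = 0.029; 0.029 to 0.488 over the alternatives).

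A promoter was matched by symbol for 35 of the 53 members. The AP-1 letters, searched on both strands, were found in 7 of these 35 (20.0%) and in 6.4% of 27457 rat promoters of the same length. Of the 7 matched promoters of the Mmp cluster, 6 held it, between 96 and 61 bases before the start: Mmp3, Mmp10, Mmp12, Mmp7, Mmp13 and Mmp20. Mmp8 did not. The 6 genes with the element include 2 that fell, 3 that did not pass and 1 that was not tested. The core of the metal response element, searched as TGCACNC or TGCGCNC on both strands, is known as the site of the zinc-sensing factor MTF-1. It was found in 12 of 35 matched members (34.3%) and in 21.2% of all promoters. The 3 matched members that rose (Mmp15, Mmp24 and Loxl4) held it, as did 2 of the 10 that fell and 7 of the 20 that did not pass. Mmp24 and Loxl4 had negative fold changes with library totals, and Adam11, which also rose, had no matched promoter. Timp2, with 3 matches, was 1 of the 2 that fell. The hypoxia core ACGTG was found in 17.1% of matched members and 16.9% of all promoters. No member held both the AP-1 and the metal response letters. Such matches describe letters in a window and no binding was measured. The promoters of the riser Mmp15 and of Timp2, which fell, are shown with the metal response letters in capitals to compare members that moved in opposite directions.
Mmp15 promoter (chr19:9691001-9691250, minus strand): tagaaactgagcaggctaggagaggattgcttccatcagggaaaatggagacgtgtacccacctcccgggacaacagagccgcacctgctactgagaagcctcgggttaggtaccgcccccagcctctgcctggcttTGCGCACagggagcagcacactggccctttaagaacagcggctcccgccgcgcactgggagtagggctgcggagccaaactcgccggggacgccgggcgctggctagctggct
Timp2 promoter (chr10:104089215-104089464, minus strand): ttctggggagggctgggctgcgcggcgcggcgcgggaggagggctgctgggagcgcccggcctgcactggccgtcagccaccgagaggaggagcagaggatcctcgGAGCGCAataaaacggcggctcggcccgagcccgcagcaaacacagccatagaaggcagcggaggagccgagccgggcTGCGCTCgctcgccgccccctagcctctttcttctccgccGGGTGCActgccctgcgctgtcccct

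Neither the gelatinases, which degrade denatured collagen and basement membrane, nor the collagenases Mmp8 and Mmp13 passed. Mmp2 had 162.3, 82.5 and 272.3 CPM in GM and 162.3, 45.5 and 48.6 CPM in GZM. GZM 1 lay within the GM range and GZM 2 and GZM 3 below it (-1.01 ± 0.58, adjusted p = 0.191). Without GZM 1 it passed as lower (-1.86, adjusted p = 0.0249), and likewise with library totals (-1.80, adjusted p = 0.0181; 0.00764 to 0.489 over the alternatives). Mmp9 had 38.6, 6.34 and 12.1 CPM in GM and 4.61, 24.9 and 31.2 CPM in GZM. High and low libraries occurred in both groups (0.09 ± 0.77, adjusted p = 0.932), and it passed under none of the 14 alternatives, its sign being negative with library totals (-0.76). Of the remaining Mmp members, Mmp19 had 37.0, 25.9 and 55.4 CPM in GM and 69.4, 59.5 and 55.2 CPM in GZM, the last GZM value touching the GM range (0.64 ± 0.27, adjusted p = 0.0862). Without GM 3 it passed as higher (1.00, adjusted p = 0.00488; 0.00487 to 0.662 over the alternatives), and with library totals its fold change was -0.16. Mmp8, Mmp13, Mmp23 and Mmp28 had adjusted p between 0.138 and 0.668.

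Of the 7 tested ADAMs with a catalytic site 5 fell and none rose, and all 7 had negative fold changes under both scalings. With library totals only 4 of the 49 tested members were positive, so the sign on that scale adds little. The 5 that fell on the TMM scale are 71.4%, beside 21.7% lower of all tested genes, a description and not a test. Adam17 (ENSRNOG00000060694), the sheddase that releases tumour necrosis factor, had 128.9, 115.6 and 136.4 CPM in GM and 69.6, 60.5 and 68.0 CPM in GZM. Libraries within each group lay close together and the groups did not overlap (means 127.0 ± 10.6 and 66.0 ± 4.84 CPM, SD, n = 3 each; -0.94 ± 0.15 SE, adjusted p = 0.00344). Adam10, which cuts Notch receptors and cadherins, had 72.1, 49.4 and 47.7 CPM in GM and 29.1, 36.0 and 45.4 CPM in GZM. The groups did not overlap, but GM 3 and GZM 3 were close and it did not pass (-0.61 ± 0.23, adjusted p = 0.0598). It passed without GM 3 (-0.68, adjusted p = 0.0472; 0.00265 to 0.2 over the alternatives) and with library totals (-1.46). Adam15, a surface protease that also binds integrins, had 56.1, 70.4 and 47.0 CPM in GM and 31.2, 24.0 and 22.9 CPM in GZM, without overlap (-1.15 ± 0.20, adjusted p = 0.00436).

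Adam12, or meltrin alpha, showed the largest fold change of the catalytic ADAMs on the TMM scale. It had 23.1, 5.75 and 6.02 CPM in GM and 1.80, 1.13 and 2.20 CPM in GZM (-2.75 ± 0.63, adjusted p = 0.0108). GM 1 held most of the signal, and without it the fold change was -1.77 and still passed (adjusted p between 3.43e-05 and 0.0463 over the 14 alternatives). Adam19, or meltrin beta, had 97.0, 59.0 and 60.4 CPM in GM and 41.7, 20.5 and 20.4 CPM in GZM (-1.39 ± 0.33, adjusted p = 0.0124). Without GZM 2 it missed the threshold (adjusted p = 0.0534; 0.000595 to 0.0534 over the alternatives). Adam8, typical of leukocytes, had 16.1, 14.5 and 19.5 CPM in GM and 8.12, 11.2 and 10.1 CPM in GZM (-0.76 ± 0.22, adjusted p = 0.0239). It missed the threshold on leaving out GM 1, GM 3, GZM 1, GZM 2 or GZM 3 (adjusted p of 0.0551 without GZM 2 to 0.0741 without GZM 1), without GM 3 and GZM 1 together (0.163) and with the replicate block (0.0526), with 0.00103 to 0.163 over the alternatives. Adam9 had 51.1 to 78.1 CPM in GM and 36.3 to 55.8 CPM in GZM and did not pass (adjusted p = 0.177). Macrophage and Kupffer cell markers went both ways. Of 12 fixed markers 11 were in the table, 6 fell, 2 rose and none was at 0. The 2 that rose were Clec4f (2.28, adjusted p = 0.0053) and Vsig4 (1.73, adjusted p = 0.0218). The summed level of the list was 4569 to 8699 CPM in GM and 2424 to 3249 CPM in GZM. Lyz2 alone had means of 2900 CPM in GM and 762.4 CPM in GZM. All 6 fixed markers of cycling cells fell, from summed levels of 340.8 to 940.5 CPM in GM to 119.4 to 136.6 CPM in GZM. Their part in the ADAM results was not tested.

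The ADAMs without a working catalytic site moved in both directions. Adam11, a membrane protein best known from neurons, had 2.56, 1.66 and 7.45 CPM in GM and 27.0, 13.01 and 12.6 CPM in GZM (2.17 ± 0.58, adjusted p = 0.0188). GM 3 was the GM library nearest to GZM and GZM 1 the highest, and the call was lost without GM 1 (adjusted p = 0.0687) or GZM 1 (0.0576), with 0.000383 to 0.0687 over the alternatives. Adam32, a testis-enriched gene, fell from 1.78, 4.47 and 1.08 CPM to 0.301, 0.377 and 0.157 CPM (-3.14 ± 0.70, adjusted p = 0.01). It was near the detection limit in GZM, with 3, 4 and 2 counts there against 37, 105 and 21 counts in GM, most of them in GM 2. Adam23 and Adam4 did not pass.

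In the ADAMTS family 3 of 14 tested members fell and none rose. The share lower, 21.4%, was at the background of 21.7% of all tested genes. The procollagen N-proteinases, which trim the amino-terminal propeptide of fibrillar collagens, held 2 of these. Adamts3, which also takes part in the processing of VEGF-C, had 3.76, 2.55 and 2.31 CPM in GM and 1.00, 0.283 and 0.55 CPM in GZM, without overlap (-2.23 ± 0.49, adjusted p = 0.00904). Adamts14 had 19.6, 8.43 and 13.1 CPM in GM and 8.32, 5.37 and 4.63 CPM in GZM, GM 2 and GZM 1 nearly meeting (-1.17 ± 0.37, adjusted p = 0.0348). Its call was lost without GM 1 (0.126), GZM 2 (0.118) or GZM 3 (0.116), with 0.0025 to 0.126 over the alternatives. Adamts2, the most abundant of the 3 by CPM, had 62.8, 29.1 and 49.1 CPM in GM and 56.6, 27.5 and 23.7 CPM in GZM and did not pass (-0.39 ± 0.38, adjusted p = 0.436). Adamts5, an aggrecanase, was at 5.50, 1.57 and 3.80 CPM in GM and 1.20, 1.32 and 0.864 CPM in GZM (-1.68 ± 0.51, adjusted p = 0.0304). GM 2 lay close to the GZM values, and the call was lost without GM 1 (0.107), GZM 1 (0.0699), GZM 2 (0.0779) or GZM 3 (0.103), without GM 3 and GZM 1 together (0.0742) and with the replicate block (0.0564), with 0.00325 to 0.107 over the alternatives. The other proteoglycanases, Adamts1, Adamts4, Adamts8, Adamts9 and Adamts15, had adjusted p between 0.0984 and 0.992. Of these, Adamts15 passed as lower in 7 of the 14 alternatives, among them library totals (-1.99, adjusted p = 0.00796), the replicate block (0.033) and leaving out GM 2 (0.0372) or GZM 1 (0.0245), with 0.00796 to 0.264 over the alternatives. The remaining tested ADAMTS members ran from -1.68 (Adamts16) to 0.93 (Adamts7), and none passed. Adamts16 passed as lower in 4 alternatives, which were library totals (adjusted p = 0.0108), the replicate block (0.0442), limma with the smaller pseudocount (0.0134) and leaving out GM 2 (0.0334), with 0.0108 to 0.242 over the alternatives. Adamts7 passed as higher with the replicate block (0.86, adjusted p = 0.041; 0.041 to 0.962 over the alternatives). The groups did not overlap for Adamts6 (-1.40 ± 0.59, adjusted p = 0.0884), which passed as lower in 4 alternatives. These were library totals (0.0125), limma with either pseudocount, and leaving out GM 3 and GZM 1 together, with 0.00984 to 0.259 over the alternatives. Adamts10 passed as lower only with library totals and in limma with either pseudocount.

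Of the 5 lysyl oxidases, Loxl4 rose on the TMM scale but had a fold change of -0.027 with library totals, and the other 4 did not pass. Loxl4 had 11.7, 17.8 and 11.2 CPM in GM and 20.8, 24.4 and 26.6 CPM in GZM (0.82 ± 0.23, adjusted p = 0.0229). The groups did not overlap, and the call was lost without GM 1 (0.0818), GZM 2 (0.0741) or GZM 3 (0.0792), with 0.00829 to 0.983 over the alternatives. Lox, the founding member and the most abundant of the 5 per length, had 417.2, 141.9 and 168.3 CPM in GM and 169.0, 150.9 and 96.9 CPM in GZM. The high mean of GM rested on GM 1 (-0.80 ± 0.42, adjusted p = 0.159). Loxl3 had 11.4, 9.40 and 8.84 CPM in GM and 7.12, 6.32 and 4.48 CPM in GZM, without overlap but just short of the threshold (-0.73 ± 0.26, adjusted p = 0.052), and passed in DESeq2 (adjusted p = 0.0331; 0.00207 to 0.178 over the alternatives). Loxl1 ranged from 20.2 to 40.8 CPM in GM and from 13.4 to 28.5 CPM in GZM (-0.50 ± 0.33, adjusted p = 0.252). Loxl2 ranged from 18.1 to 47.6 CPM in GM and from 13.5 to 18.7 CPM in GZM (-0.81 ± 0.37, adjusted p = 0.112). With library totals Lox, Loxl1, Loxl2 and Loxl3 all passed as lower, as did 59.4% of all tested genes. Markers of stellate cells, fibroblasts and smooth muscle overlapped in the same way: 11 of 12 fixed markers were in the table, 2 fell, 1 rose and none was at 0, and their summed level was 3726 to 10067 CPM in GM, highest in GM 1, and 1913 to 4376 CPM in GZM. Their part in the results of Lox, Mmp2 and the ADAMTS genes was not tested.

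Genes that switch these enzymes on or off changed in both directions. Of 20 other inhibitors and activators 7 rose and 7 fell, or 70% in all beside 44.0% of all tested genes, with a median of -0.19. The proprotein convertases that remove prodomains were higher: Pcsk6 had 19.8, 22.3 and 35.8 CPM in GM and 76.0, 76.0 and 87.9 CPM in GZM (1.62 ± 0.24, adjusted p = 0.00277). Furin rose by 1.27 (adjusted p = 0.0028), which with library totals came to 0.45 (adjusted p = 0.0527). The urokinase receptor gene Plaur had 32.6, 45.6 and 25.04 CPM in GM and 10.3, 16.0 and 13.98 CPM in GZM (-1.35 ± 0.27, adjusted p = 0.0063). Urokinase itself (Plau) was at the threshold (-0.71 ± 0.25, adjusted p = 0.0492), and the call ended on leaving out GM 1, GM 3, GZM 1, GZM 2 or GZM 3 (0.053 to 0.164), without GM 3 and GZM 1 together (0.225), with median-of-ratios factors (0.0575) and in DESeq2 (0.0513), with 0.00187 to 0.225 over the alternatives. The thrombospondin gene Thbs1 fell by 1.54 (adjusted p = 0.00426). Reck, the membrane-anchored inhibitor of several Mmps, had 9.49 to 14.6 CPM in GM and 6.60 to 9.11 CPM in GZM and did not pass (-0.52 ± 0.25, adjusted p = 0.128).

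Among the partners of the sheddases 1 of 8 tested genes rose and 3 fell, or 50% in all, near the 44.0% of all tested genes. The tetraspanin Tspan33, a partner of ADAM10, rose from 2.60, 1.96 and 6.07 CPM to 21.2, 14.3 and 15.2 CPM (2.26 ± 0.43, adjusted p = 0.00574). Another ADAM10 partner, Tspan5, fell by 1.37 (adjusted p = 0.00541), and Frmd8, which stabilizes the iRhom and ADAM17 complex, fell by 0.75 (adjusted p = 0.0221), a call lost without GM 2, GZM 2 or GZM 3 (0.0562 to 0.0874). The iRhom gene Rhbdf2, needed for ADAM17 to mature in immune cells, did not pass (-0.08 ± 0.19, adjusted p = 0.749). Of 6 tested astacin and other matrix proteases 2 rose and none fell, or 33.3% beside 44.0% of all tested genes. With library totals none rose and 3 fell, where 9.22% of all tested genes rose and 59.4% fell. Bmp1, the procollagen C-proteinase, had 91.3, 58.6 and 89.5 CPM in GM and 162.5, 195.3 and 170.1 CPM in GZM (1.14 ± 0.21, adjusted p = 0.00532). With library totals its fold change was 0.31 (adjusted p = 0.205). The cathepsin gene Ctsl rose by 1.27 (adjusted p = 0.0286), a call lost without GM 1, GM 2, GZM 2 or GZM 3 (0.0778 to 0.105) and with library totals (0.48, adjusted p = 0.213). Ctss did not pass. The ADAMTS-like genes, which have no protease domain, split: Adamtsl4 rose by 2.65 (adjusted p = 0.00586), Adamtsl5 fell by 2.93 (adjusted p = 0.00466), and Adamtsl2 did not pass (1.23, adjusted p = 0.0584).

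For the substrates, 3 of 15 tested matrix genes fell and 1 rose, with a median of -0.99. The share lower, 20%, was near the background of 21.7%, and the share higher was 6.67% beside 22.2%. With library totals 13 fell and none rose, on a scale where 59.4% of all tested genes fell and 9.22% rose. The proteoglycan versican (Vcan), cut by several ADAMTS proteases, had 185.4, 92.4 and 107.4 CPM in GM and 56.6, 46.9 and 46.6 CPM in GZM (-1.36 ± 0.27, adjusted p = 0.00662). Fibronectin (Fn1), which hepatocytes secrete into plasma, rose by 1.37 (adjusted p = 0.0101), or 0.54 with library totals (adjusted p = 0.106). The basement membrane collagen gene Col4a2 fell by 0.99 (adjusted p = 0.0361), a call lost without GM 1, GZM 2 or GZM 3 (0.102 to 0.125).

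**Figure D4:**
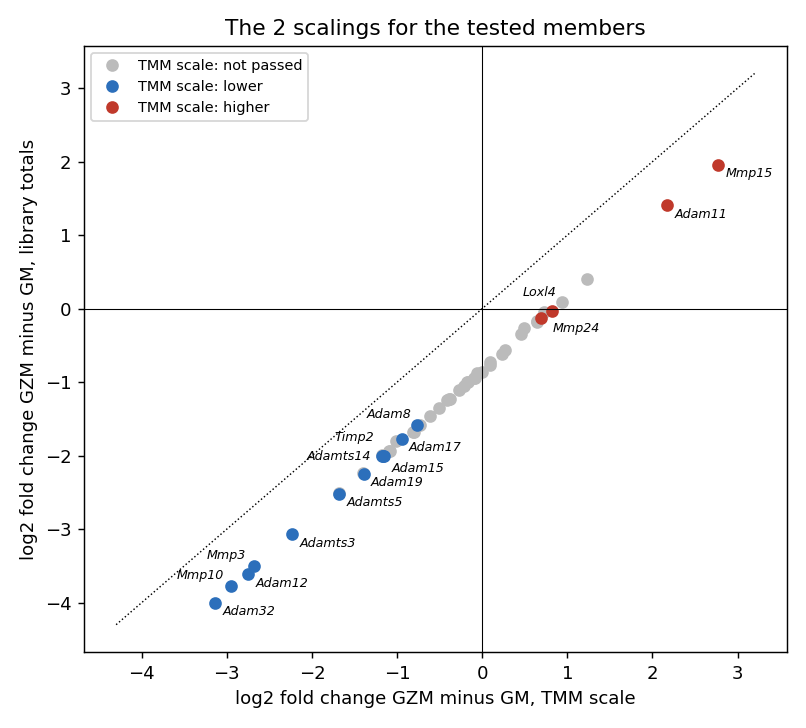
Log2 fold change of the 49 tested members on the TMM scale (horizontal) and with library totals (vertical); the dotted line marks equal values and colours show the call on the TMM scale. All points lie below the line, 11 change sign, and of the 16 called members Mmp24 and Loxl4 are the 2 that do.

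The choice of scale moved all members together. With library totals 32 of the 49 tested members changed, 2 higher and 30 lower, where 68.7% of all tested genes did (9.22% higher, 59.4% lower). The number of members with a positive fold change went from 15 to 4. The members that rose there were Mmp15 and Adam11.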

How the data were processed

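RNA from 6 rat liver samples was read as strand-specific, poly(A)-selected paired-end libraries, per the labels' protocols. The deposited table gives, per the file headers, whole-number read counts per gene, which are not normalized, and FPKM values. The deposited FPKM equal counts per kilobase of the exon length given in the table and per 1000000 summed counts: all 195738 values were recomputed within 0.01. Neither aligner nor counter nor use of strand is given in the sources used here, so overlapping or antisense genes and close family members are uncertain. The submitters' processing notes name mRatBN 7.2, but the table's positions run past the end of that build's chromosome 1, so its build is not settled. Columns lettered ZGM were taken as the GZM samples with the same numbers.

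Counts were tested with edgeR 4.0.16 (R 4.3.3), using the quasi-likelihood test, TMM factors, the default low-count filter and Benjamini-Hochberg adjustment over all 14298 tested genes at 0.05. Counts were also simulated for this comparison over 14298 genes, of which 200 were changed. There 14% of 2-fold and 81% of 4-fold changes were recovered, with 6 false calls. In the data 44.0% of the tested genes were called, a far larger share, so these figures may not carry over. Alternatives were other scalings, no filter, the replicate number as a block, DESeq2 1.42.0, limma 3.58.1 on log2(FPKM + 0.1) or (FPKM + 1), and leaving out libraries. Division of the summed FPKM by TMM factors was added after seeing the data. Promoters came from RefSeq (GRCr8). Figures were drawn with matplotlib 3.10.9. Members, roles and lists were chosen with earlier results of these data known. Values by library are given for the members that passed, at most 4 per role, and for Timp, Lox family, Mmp2, Mmp9, Mmp12, Mmp14, Adam10 and Adam17 whatever their result. Of each related list at most 3 genes of smallest p are named, with Reck, Rhbdf2, Plau and Plaur. One further gene is not reported here. Adam8, Adamts2, Mmp7 and Mmp19 were added after their values were seen.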

Additional observations from a re-analysis of the deposited data

How the results depend on the processing

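Of the 16 members called with all libraries and TMM factors, 8 kept direction and call under all 14 alternatives (Timp2, Mmp3, Mmp15, Adam12, Adam15, Adam17, Adam32 and Adamts3) and 8 lost the call without at least 1 library. Of the 33 not called, 25 passed under at least 1 alternative. The cause of these differences was not tested, other than the shift of scale. Changed members numbered 32 (2 higher, 30 lower) with library totals, 31 (2, 29) in limma on log2(FPKM + 0.1) and 29 (2, 27) on log2(FPKM + 1). Changed genes numbered 9818 (1318 higher, 8500 lower), 9835 (1317, 8518) and 9753 (1328, 8425) in the same order. Without GM 3 and GZM 1 there were 24 changed members (7 higher, 17 lower) and 6998 changed genes (3645 higher, 3353 lower). With all libraries there were 16 and 6285. Leaving out 1 library gave 9 to 19 changed members (2 to 7 higher, 7 to 13 lower) and 3777 to 7024 changed genes (2112 to 3592 higher, 1665 to 3432 lower), the fewest without GZM 2. Without GZM 3 the members changed were 10. Mmp24 turned to -0.12 with library totals and to -0.11 and -0.092 in limma with the smaller and larger pseudocount, and Loxl4 to -0.027 with library totals. The replicate block gave 5166 changed genes and 15 changed members. Same-numbered samples deviated from their group means with correlations of -0.14, 0.16 and -0.27, so the numbers were not taken as pairs. Members under about 100 counts in all, such as Mmp10 (86), are limited by depth.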

Other observations

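Several members stood apart in GZM 1 from the other GZM libraries. Mmp2 was at 162.3 CPM there against 45.5 and 48.6 CPM, Adamts2 at 56.6 against 27.5 and 23.7 CPM, Adamts15 at 18.5 against 6.13 and 7.07 CPM, Adamts7 at 35.8 against 13.01 and 14.3 CPM, and Adam11 at 27.0 against 13.01 and 12.6 CPM. The proteoglycan gene Lum, a fibroblast marker, was at 68.6 CPM in GZM 1 and at 9.99 and 6.99 CPM in GZM 2 and GZM 3. Mmp9 and Mmp15 were lowest in GZM 1 among the GZM libraries, at 4.61 and 35.9 CPM. These genes were named after their values were seen and the pattern was not tested.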
